A study of Rattus norvegicus with 13 samples.

Results

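A group of 6 dehydrogenase genes was followed in the left ventricle of pregnant rats: the alcohol dehydrogenases Adh1c, Adh5 and Adh7 and the aldehyde dehydrogenases Aldh1a1, Aldh1a2 and Aldh2. The members were taken by gene symbol, which gave 7 probe sets, 2 of them for Adh1c, of 31042 probe sets tested. Adh1c was selected on its log2 signal, which was lower in Met-fed than in control hearts, and the other 5 genes were taken as its relatives. The Met-fed and control values of Adh1c that made this choice, and all its comparisons with Met-fed arrays, are therefore given as a description with no test.

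Gene expression had been read on 13 Affymetrix rat genome arrays. On them a gene is measured by 1 or more probe sets, each made of short oligonucleotides near the 3′ end of the transcript. All rats were Sprague Dawley females killed on day 20 or 21 of pregnancy. The 4 L-NAME arrays came from rats that drank L-NAME, which blocks nitric oxide synthase, at 1 g/L in their water over days 1 to 20. The 4 Met-fed arrays came from rats given methionine at 9 g/L over the same days, and the 5 control arrays from rats without either agent. These days are those of the labels, while the paper's methods give methionine from day 1 of the first pregnancy until death in a later one. The labels do not mention parity, while the methods describe rats mated 3 to 4 times and 4 control arrays, so all 5 control arrays were used. The labels do not say whether each array is a separate rat, and p-values measure the spread between these samples only. Values are log2 MAS5 signals, a linear intensity per probe set scaled by the authors and taken to log2 here.

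Alcohol dehydrogenases oxidize alcohols to aldehydes, and aldehyde dehydrogenases oxidize aldehydes to acids, in both cases with NAD as the usual electron acceptor. The same pair of steps turns retinol into retinaldehyde and then into retinoic acid, the ligand of the nuclear receptors RAR. Adh1c is a class I enzyme that acts on ethanol and retinol. Adh5 is the glutathione-dependent formaldehyde dehydrogenase, which also reduces S-nitrosoglutathione, and Adh7 is a class IV enzyme that acts on retinol and is best known from the stomach. Aldh1a1 and Aldh1a2 oxidize retinaldehyde to retinoic acid, and Aldh1a2 is the enzyme of the embryonic epicardium. Aldh2 is the mitochondrial enzyme that clears acetaldehyde and aldehydes from lipid peroxidation.

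Adh1c, Adh5 and Adh7 lie in 1 cluster on rat chromosome 2, in the order Adh7, Adh1c, Adh6a, Adh6, Adh4 and Adh5. The 150 bases before the start of 4 members are shown to set side by side the cluster neighbours Adh1c and Adh5, and the 2 enzymes of retinaldehyde, whose values follow. Promoter sequences were matched by symbol for 5 members, all but Aldh2. They are from RefSeq on GRCr8, 5′ to 3′ on the strand of the gene, and all 4 genes lie on the plus strand. Adh1c is at chr2:229470553-229470702, Adh5 at chr2:229648407-229648556, Aldh1a1 at chr1:227537470-227537619 and Aldh1a2 at chr8:80758491-80758640. Capitals mark matches on either strand to the E-box CANNTG, the CCAAT box, the GC box GGGCGG and the octamer ATGCAAAT, and an E-box can overlap any of the others or a second E-box.
Adh1c: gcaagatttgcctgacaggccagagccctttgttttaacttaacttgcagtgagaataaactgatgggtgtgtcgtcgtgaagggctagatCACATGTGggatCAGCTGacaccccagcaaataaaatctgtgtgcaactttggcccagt
Adh5: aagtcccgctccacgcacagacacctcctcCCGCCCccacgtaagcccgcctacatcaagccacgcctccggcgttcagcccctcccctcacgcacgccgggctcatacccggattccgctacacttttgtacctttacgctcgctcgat
Aldh1a1: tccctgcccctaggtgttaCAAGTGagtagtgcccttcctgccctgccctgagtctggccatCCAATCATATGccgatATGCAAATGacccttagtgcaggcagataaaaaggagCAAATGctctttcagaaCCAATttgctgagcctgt
Aldh1a2: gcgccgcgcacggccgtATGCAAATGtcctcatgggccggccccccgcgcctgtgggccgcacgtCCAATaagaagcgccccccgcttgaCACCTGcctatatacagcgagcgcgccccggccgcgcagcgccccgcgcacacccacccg

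Over 250 bases before the start, the Adh1c sequence was 41.2% G or C with 2 CpG, against 62.4% with 21 CpG for Adh5. The Aldh1a1 sequence was 46.4% G or C with 1 CpG, and that of Aldh1a2 77.2% with 41 CpG. Adh1c held 5 CANNTG and no GGGCGG, while Adh5 held no CANNTG and 2 GGGCGG. Aldh1a1 and Aldh1a2 each held 1 ATGCAAAT, the octamer, which 1.56% of the 33469 promoters of the table held. CANNTG was in 65.5% of them, CCAAT in 34% and GGGCGG in 30.5%. These motifs were chosen after the sequences were seen, and a match is a description of letters only.

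The L-NAME arrays stood apart from the other 9. On the first principal component they lay between 65.8 and 69.1, against -32.9 to -11.6 for Met-fed and -46.3 to -26.7 for control arrays. The median signal was 34.2 to 36.9 on L-NAME, 25.8 to 29.2 on Met-fed and 25.7 to 27.2 on control arrays. The log2 ratio of 3′ to 5′ signal of beta-actin, which depends on intact and evenly labelled RNA, was 2.32 to 2.70 on L-NAME, 3.32 to 3.71 on Met-fed and 3.31 to 3.67 on control arrays. The labels give no batch, so treatment and what else sets these arrays apart cannot be told apart, and this holds for every L-NAME comparison below. With limma, 45.7% of probe sets passed an adjusted p under 0.05 for L-NAME against control, 28.7% higher and 17% lower, and the median change of all probe sets was 0.22. For L-NAME against Met-fed 40.3% passed, 25.4% higher and 14.9% lower, with a median change of 0.25. After quantile normalization the median change against control was -0.01, and after centring on the array medians it was -0.21. Quantile normalization and median centring are called the 2 other scalings below, and a call said to hold passed in the same direction under both. For Met-fed against control 0% passed the adjusted threshold, with a smallest adjusted p of 0.13, 10.7% (3319 probe sets) had an unadjusted p under 0.05 by limma, and 2478 had one by the methods' t-test.

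Adh1c was low in L-NAME hearts, intermediate in Met-fed hearts and high in control hearts. Its bright probe set (1368021_at) gave 7.66, 7.14, 7.80 and 7.33 on L-NAME arrays, 8.66, 8.03, 9.16 and 8.63 on Met-fed arrays and 9.82, 9.38, 10.18, 9.51 and 9.23 on control arrays. No 2 of the groups overlapped, and the narrowest gap lay between the highest Met-fed array and the lowest control array. The means were 7.48 ± 0.30 in L-NAME, 8.62 ± 0.46 in Met-fed and 9.62 ± 0.38 in control hearts (SD, n = 4, 4 and 5).

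Against control, Adh1c fell in L-NAME hearts with a log2 change of -2.14 ± 0.21 (SE) and an adjusted p of 7.47e-07 in limma, a fold of 0.226 with a 95% interval of 0.165 to 0.310. The exact permutation test gave 0.0159, the smallest p that 4 against 5 arrays allow. The control arrays of this comparison also took part in the choice of the gene. In Met-fed hearts the log2 change from control was -1.001, a fold of 0.500, and L-NAME differed from Met-fed hearts by -1.14, both without a test.

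The size of the Adh1c change was set beside probe sets of like mean signal, since the L-NAME changes of all probe sets depended on signal. Adh1c lay in the ninth of 10 signal groups, where the median change for L-NAME against control was 0.04 and the 5th percentile -1.15. Of the 3104 probe sets there, 7 had a lower change than Adh1c, a rank that rests partly on the control arrays used to choose it. In the Met-fed comparison with control 4 of the 3104 had a lower change, which describes the contrast that chose the gene.

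**Figure D1:**
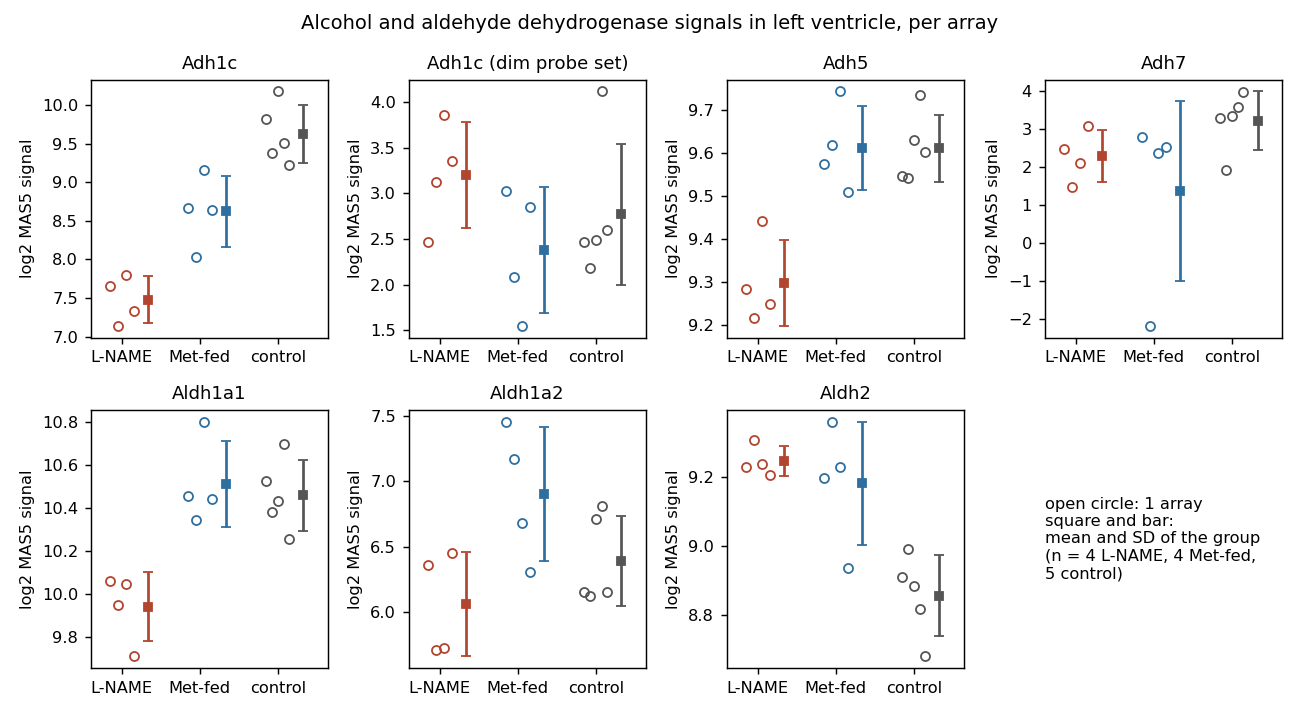
Log2 MAS5 signal (y axis) of each probe set of the 6 dehydrogenases in L-NAME, Met-fed and control left ventricle (x axis), with 1 open circle per array and the mean ± SD as a square and bar. Adh1c separates into 3 levels, with the L-NAME arrays at 7.14 to 7.80, while Adh5 and Aldh1a1 are lower on all 4 L-NAME arrays than on the other 9.

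The dim probe set labelled Adh1c (1378260_at) did not follow the bright one. It gave 2.47, 3.12, 3.86 and 3.35 on L-NAME arrays, 3.03, 2.08, 1.55 and 2.85 on Met-fed arrays and 2.46, 2.18, 2.49, 4.12 and 2.60 on control arrays. The groups overlapped, and 12 of 13 values were above the highest bacterial control probe set of their array, which no rat transcript should light. Its L-NAME change against control was 0.43 ± 0.45 (adjusted p = 0.474, limma), and turned to -0.05 after quantile normalization. The 2 probe sets thus disagreed in direction for L-NAME, and the reading of Adh1c rests on the bright one.

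Adh5, the cluster neighbour, was lower in L-NAME hearts than in both other groups. It gave 9.28, 9.22, 9.44 and 9.25 on L-NAME arrays, 9.57, 9.62, 9.74 and 9.51 on Met-fed arrays and 9.55, 9.54, 9.63, 9.73 and 9.60 on control arrays. The L-NAME arrays lay below all others, and Met-fed and control arrays overlapped. The Adh5 change in L-NAME hearts was -0.31 ± 0.08 against control (adjusted p = 0.0026, limma) and -0.31 ± 0.08 against Met-fed (adjusted p = 0.00468, limma), with exact permutation p of 0.0159 and 0.0286. The Met-fed change against control was 0.00 ± 0.08 with a 95% interval of -0.16 to 0.16, and its sign changed between settings.

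Adh5 belongs to the brightest of the 10 signal groups, where L-NAME signals ran lower as a whole. There the median change for L-NAME against control was -0.27, 52.6% of probe sets were called lower and 16.7% higher, and 1430 of 3105 had a lower change than Adh5. Its L-NAME change was thus close to the middle of probe sets as bright.

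Adh7 was dim and gave no call. Its probe set (1369072_at) gave 2.47, 1.46, 2.11 and 3.08 on L-NAME arrays, 2.77, -2.18, 2.35 and 2.53 on Met-fed arrays and 3.28, 1.91, 3.32, 3.57 and 3.96 on control arrays. It exceeded the highest bacterial control on 11 of 13 arrays, and the lowest value, Met-fed replicate 2, set much of its group's spread. The changes were -0.93 ± 0.82 for L-NAME against control (adjusted p = 0.388, limma) and -1.84 ± 0.82 for Met-fed against control (adjusted p = 0.445). Without Met-fed replicate 2 the Met-fed change was -0.66, and the change of L-NAME against Met-fed turned to -0.27 from a value of 0.91 ± 0.86 (adjusted p = 0.436, limma) with it.

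Aldh1a1, the retinaldehyde dehydrogenase with a single CpG upstream, fell in L-NAME hearts. It gave 10.06, 9.95, 10.04 and 9.71 on L-NAME arrays, 10.46, 10.34, 10.80 and 10.44 on Met-fed arrays and 10.52, 10.38, 10.43, 10.70 and 10.26 on control arrays. All 4 L-NAME arrays lay below the other 9, among which Met-fed and control overlapped. The L-NAME change was -0.52 ± 0.11 against control (adjusted p = 0.000762, limma) and -0.57 ± 0.11 against Met-fed (adjusted p = 0.000709, limma). The exact permutation tests gave 0.0159 and 0.0286, the smallest values possible. Of the 3105 brightest probe sets 888 had a lower change than Aldh1a1 for L-NAME against control. Its Met-fed change against control was 0.05 ± 0.11 (adjusted p = 0.897, limma; interval -0.17 to 0.28), and -0.01 after median centring.

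Aldh1a2 was highest in Met-fed hearts on average and lowest in L-NAME hearts. It gave 6.36, 5.71, 5.73 and 6.45 on L-NAME arrays, 7.46, 7.17, 6.68 and 6.31 on Met-fed arrays and 6.15, 6.12, 6.71, 6.81 and 6.16 on control arrays. The groups overlapped, with 2 Met-fed arrays above every other array and 2 L-NAME arrays below every other array. Only L-NAME against Met-fed was called, at -0.84 ± 0.25 (adjusted p = 0.0145, limma), with an exact permutation p of 0.0857. That call was lost without Met-fed replicate 1 (-0.66, adjusted p = 0.0521, limma), without L-NAME replicate 2 (-0.72, adjusted p = 0.0503, limma) and with the methods' t-test (adjusted p = 0.0937).

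Against control the Aldh1a2 changes were -0.33 ± 0.24 in L-NAME hearts (adjusted p = 0.291, limma) and 0.51 ± 0.24 in Met-fed hearts (adjusted p = 0.468, limma). The L-NAME change passed after quantile normalization (-0.63, adjusted p = 0.0450, limma) and after median centring (-0.75, adjusted p = 0.0156, limma). The Met-fed change kept its sign over the settings, from 0.35 to 0.51, without passing in any.

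Aldh2 averaged 9.24 ± 0.04 in L-NAME, 9.18 ± 0.18 in Met-fed and 8.86 ± 0.12 in control hearts (SD). It gave 9.23, 9.31, 9.24 and 9.20 on L-NAME arrays, 9.20, 9.36, 9.23 and 8.94 on Met-fed arrays and 8.91, 8.99, 8.88, 8.82 and 8.68 on control arrays. Every L-NAME array lay above every control array, and 1 of 4 Met-fed arrays lay within the control range. The L-NAME change against control was 0.39 ± 0.09 (adjusted p = 0.00194, limma; exact permutation p = 0.0159), but it turned to -0.04 (adjusted p = 0.794, limma) under median centring of the arrays. The Met-fed change was 0.32 ± 0.09, which did not pass after adjustment over all probe sets (adjusted p = 0.274, limma), with an exact permutation p of 0.0317 for this single probe set. L-NAME and Met-fed hearts differed by 0.06 ± 0.09 (adjusted p = 0.633, limma), a sign that median centring also turned, to -0.30 (adjusted p = 0.0346, limma).

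Aldh2 had a change above most of the probe sets of its signal in both comparisons with control. Of the 3105 brightest probe sets 2739 had a lower change than Aldh2 for L-NAME against control and 3063 for Met-fed against control. For Met-fed against control the corresponding numbers were 1836 for Adh5 and 2282 for Aldh1a1.

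**Figure D2:**
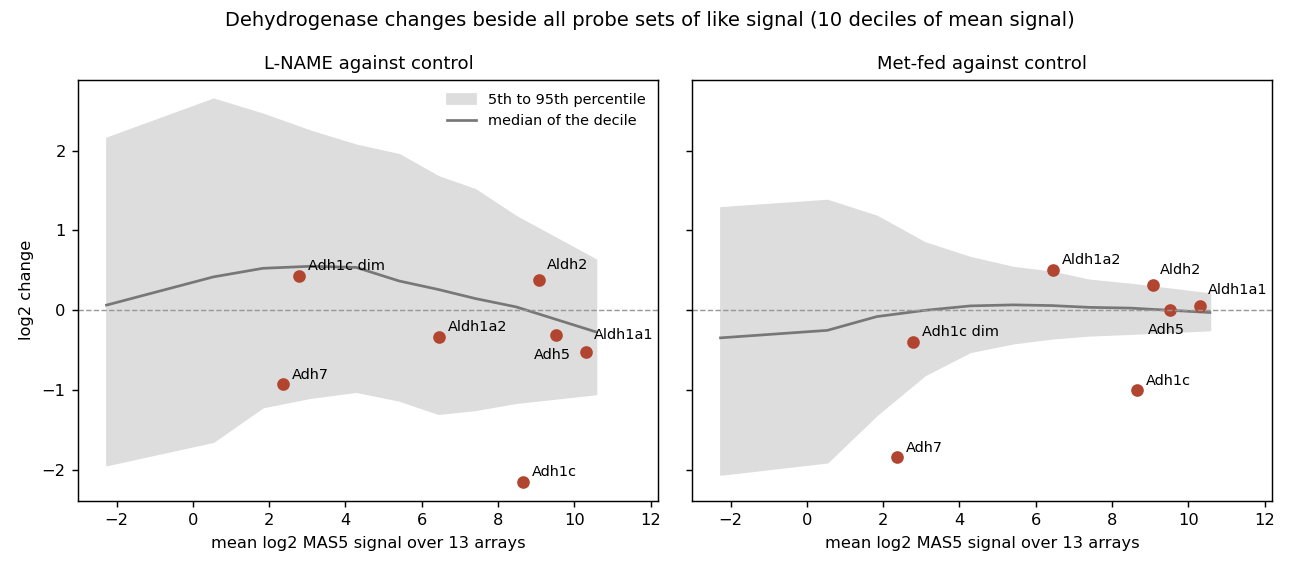
Log2 change of each probe set of the 6 dehydrogenases (points, y axis) against its mean log2 signal over 13 arrays (x axis), for L-NAME against control and Met-fed against control. The line joins the medians of 10 groups of all probe sets by signal and the grey band their 5th to 95th percentiles. The bright Adh1c probe set lies below the band in both panels, while the dim one, Adh5 and Aldh1a1 lie inside it. Adh7, Aldh1a2 and Aldh2 lie inside the band for L-NAME, and for Met-fed Adh7 lies below it at -1.84 and Aldh1a2 and Aldh2 above it at 0.51 and 0.32.

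Counted over the 7 probe sets, 4 passed for L-NAME against control, 3 of them lower (Adh1c, Adh5 and Aldh1a1) and 1 higher (Aldh2, whose direction median centring turned), beside 17% of all probe sets lower and 28.7% higher. The 3 lower calls held under both other scalings. Without Adh1c, whose control arrays took part in its choice, 3 of the 5 other probe sets passed, 2 of them lower. Comparisons with Met-fed arrays were counted over the 5 probe sets other than Adh1c. For L-NAME against Met-fed 3 of the 5 passed, all lower (Adh5, Aldh1a1 and Aldh1a2), beside 14.9% lower of all probe sets. At like signal the shares called lower were larger. In the brightest signal group, that of Adh5, Aldh1a1 and Aldh2, 48.2% were called lower and 14.2% higher against Met-fed. Against control that group had 52.6% lower and 16.7% higher. In the seventh group, that of Aldh1a2, 19.7% were called lower against Met-fed, and in the ninth, that of Adh1c, 30.6% against control. For Met-fed against control 0 of the 5 passed in limma, while 3 (Adh7, Aldh1a2 and Aldh2) had an unadjusted p under 0.05, beside 10.7% of all probe sets. The methods' t-test gave 1 such probe set and also 0 after adjustment. Comparisons that share control or L-NAME arrays are not independent of each other.

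**Figure D3:**
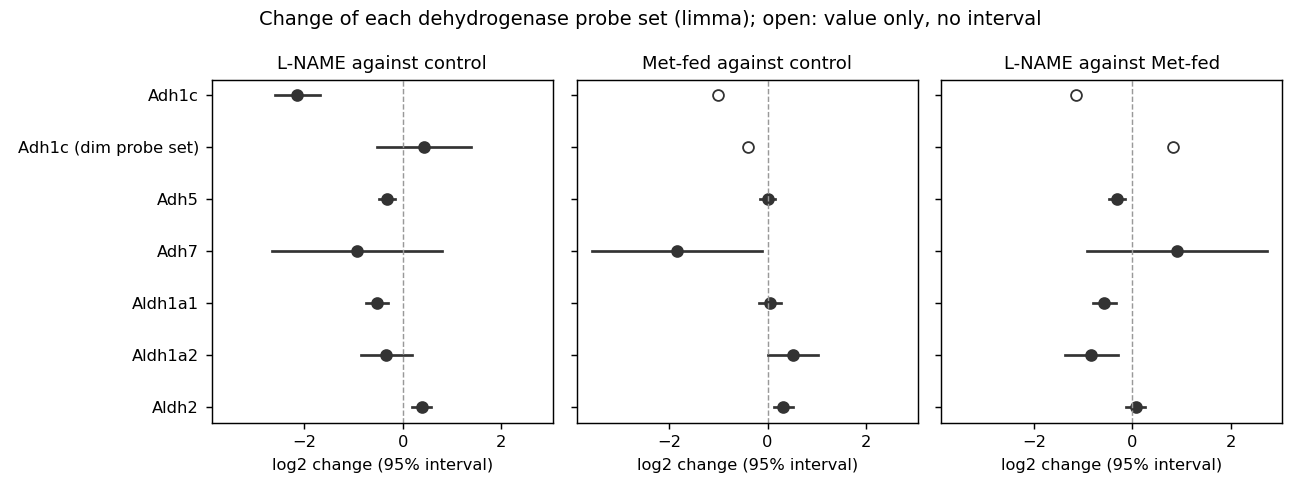
Log2 change (x axis) of each probe set of the 6 dehydrogenases (rows) in the 3 comparisons, L-NAME with control on the left, Met-fed with control in the middle and L-NAME with Met-fed on the right, with 95% intervals from limma. Adh1c is an open point without an interval in both panels with Met-fed arrays, and for L-NAME against control its interval is the one farthest below 0. The Aldh2 point of L-NAME against control, at 0.39, turns to -0.04 after median centring.

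Within groups, Adh1c spread most among Met-fed arrays, from 8.03 in replicate 2 to 9.16 in replicate 3. Likeness to this variation was measured over the 13 arrays as the correlation of deviations from the group means. It was taken among 11935 probe sets with 1 symbol and at least median signal. The most alike were Nup54 (r = 0.91, rho = 0.91), Lhpp (0.87, 0.85), Pigo (0.87, 0.88), Pop4 (0.85, 0.90) and Nemf (0.85, 0.82). Without the 2 arrays farthest from the median the r values were 0.90, 0.79, 0.85, 0.86 and 0.81. These points share array, scaling and tissue piece, and the 5 genes were picked as the highest of many, so they are a description. Their changes in L-NAME hearts against control varied in sign: Nup54 changed by 0.71 ± 0.16 (adjusted p = 0.00145, limma), Pop4 by 0.59 ± 0.14 (adjusted p = 0.00242, limma), Lhpp by -0.65 ± 0.16 (adjusted p = 0.00333, limma), Pigo by -0.36 ± 0.17 (adjusted p = 0.104, limma) and Nemf by -0.06 ± 0.12 (adjusted p = 0.728, limma). Among the dehydrogenases, Aldh1a1 had r = 0.61, Adh7 0.52, Adh5 0.41, Aldh1a2 -0.01 and Aldh2 -0.07 with Adh1c.

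The rest of the dehydrogenase family was read by the brightest probe set of each gene, for which 24.2% of 14217 genes were called higher and 25.2% lower in L-NAME hearts against control. Of 17 measured other alcohol and aldehyde dehydrogenases, 2 rose, 5 fell and 10 did not pass, with a median change of -0.09 beside 0.01 over all genes. All 5 falls held under the 2 other scalings. The strongest was Aldh3a2, the fatty aldehyde dehydrogenase, at 8.08 to 8.23 on L-NAME, 9.09 to 9.36 on Met-fed and 9.05 to 9.33 on control arrays. It fell by 1.05 ± 0.08 against control (adjusted p = 8.49e-08, limma), and the L-NAME arrays did not overlap any other. Aldh9a1, which acts on trimethylaminobutyraldehyde in carnitine synthesis, fell by 0.93 ± 0.11 (adjusted p = 3.66e-06, limma).

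Aldh1l2, a mitochondrial folate enzyme, fell by 1.31 ± 0.33 (adjusted p = 0.00341, limma), and Aldh3b1 and Aldh7a1 made up the 5. Of those that rose, Aldh18a1, of proline synthesis, changed by 0.83 ± 0.27 (adjusted p = 0.0179, limma), a call lost under both other scalings (adjusted p = 0.12 and 0.212, limma). Aldh1b1 also passed, but its signals were not above the bacterial controls on any array, so no fold is given. The Adh1c neighbours Adh4 and Adh6a averaged 1.47 and 1.84 in L-NAME, 1.13 and 1.14 in Met-fed and 0.98 and 0.97 in control hearts, near the bacterial controls. Aldh5a1, Aldh6a1 and Adhfe1 had probe sets that disagreed, for example -0.09 ± 0.10 for the bright and 1.33 ± 0.18 for the dimmer Aldh6a1 probe set. Against Met-fed hearts, 5 of the 17 fell in L-NAME hearts and 0 rose, beside 22.5% lower and 21.5% higher over all genes. Against control, 0 of the 17 passed in Met-fed hearts with limma and 1, Aldh1b1, had an unadjusted p under 0.05.

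Genes of the first retinoid step, between retinol, its esters and retinaldehyde, were called only upward in L-NAME hearts on the MAS5 scale, with 5 of 15 measured higher and 0 lower against control, but 1 higher and 1 lower after median centring. The background was 24.2% and 25.2% of genes, and 11.1% and 42.1% after median centring. The median change of the list was 0.51, beside 0.01 over all genes, and 0.09, beside -0.41, after median centring. Of the 15, 7 were above the bacterial controls on all arrays. Rdh11, a retinaldehyde reductase, gave 6.31 to 6.94 on L-NAME, 5.55 to 6.13 on Met-fed and 5.14 to 5.86 on control arrays. It rose by 1.01 ± 0.19 (adjusted p = 0.00041, limma), the 1 call of the 5 that held under both other scalings.

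Dhrs4 changed by 0.45 ± 0.07 (adjusted p = 0.000113, limma), Rdh14 by 0.45 ± 0.10 (adjusted p = 0.00166, limma), Dhrs3, which returns retinaldehyde to retinol, by 0.52 ± 0.12 (adjusted p = 0.00198, limma) and Lrat, which makes retinyl esters, by 1.12 ± 0.29 (adjusted p = 0.00468, limma). After median centring these 4 changes were 0.02, 0.02, 0.10 and 0.70 and did not pass. Rdh10, the main retinol dehydrogenase of the embryo in mice, had 5.12 ± 0.11 in L-NAME, 5.58 ± 0.41 in Met-fed and 5.30 ± 0.26 in control hearts (SD), and did not pass (adjusted p = 0.508 for L-NAME against control, limma). Against Met-fed hearts 4 of the 15 were called higher and 0 lower, and 0 and 1 after median centring. The shares over all genes were 21.5% and 22.5%, and 9.72% and 37.2% after median centring. In Met-fed hearts against control 0 passed, and 0 had an unadjusted p under 0.05.

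Among 9 measured carriers, 1 was called higher and 1 lower in L-NAME hearts against control, beside 24.2% and 25.2% of all genes. Their median change was -0.09. Crabp2, which carries retinoic acid to its receptors, changed by 0.91 ± 0.27 (adjusted p = 0.0107, limma), lost after median centring (adjusted p = 0.15, limma). Fabp5 changed by -0.27 ± 0.10 (adjusted p = 0.0319, limma), lost after quantile normalization (adjusted p = 0.76, limma). Between the treated groups 1 carrier was called higher and 2 lower, beside 21.5% and 22.5% of all genes. Rbp7, a cellular retinol binding protein, lay at 10.42 to 10.73 on L-NAME, 8.97 to 10.06 on Met-fed and 9.59 to 10.71 on control arrays. It rose by 0.99 ± 0.23 in L-NAME against Met-fed hearts (adjusted p = 0.00221, limma), a call that held under both other scalings. Ttr, the transthyretin of plasma retinol transport, changed by -0.49 ± 0.16 (adjusted p = 0.0188, limma) without overlap of the groups, which also held, and Fabp5 by -0.30 ± 0.10 (adjusted p = 0.0235, limma), lost after quantile normalization (adjusted p = 0.388, limma). Rbp7 in Met-fed hearts against control gave -0.60 ± 0.21, with an unadjusted p under 0.05 and an adjusted p of 0.354 in limma. Crabp1 was above the bacterial controls on 6 of 13 arrays, and no fold is given.

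Cyp26b1, which breaks down retinoic acid, gave 5.60 to 7.07 on L-NAME, 5.98 to 7.56 on Met-fed and 6.82 to 7.66 on control arrays. It fell by 1.01 ± 0.31 in L-NAME hearts against control (adjusted p = 0.0143, limma), and the call held under both other scalings. The Met-fed change of -0.50 ± 0.31 did not pass (adjusted p = 0.597, limma). A dimmer Cyp26b1 probe set did not show the L-NAME fall. It overlapped at 3.44 to 4.57 on L-NAME and 2.51 to 4.43 on control arrays, so the fall rests on the bright one. Cyp26a1 was above the bacterial controls on 2 of 13 arrays. Of 6 receptors, 3 were called higher and 2 lower in L-NAME hearts against control, beside 24.2% and 25.2% of all genes. After median centring 1 was called higher and 2 lower, beside 11.1% and 42.1% of all genes. Rxrb fell by 0.45 ± 0.09 (adjusted p = 0.000881, limma), which held under both other scalings. Rara changed by 0.96 ± 0.25 (adjusted p = 0.00462, limma) and Rarb by 0.65 ± 0.16 (adjusted p = 0.00289, limma), and after median centring by 0.54 (adjusted p = 0.0966, limma) and 0.22 (adjusted p = 0.279, limma). Rxrg was also lower, a call lost after quantile normalization (adjusted p = 0.0628, limma). Rxra passed at a signal above the bacterial controls on only 4 of 13 arrays. Against control, 0 of 6 passed in Met-fed hearts with limma, and Rxra and Rxrg had an unadjusted p under 0.05.

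Genes that retinoic acid is known to induce gave a mixed count, 4 higher and 2 lower of 10 measured for L-NAME against control (0 and 3 after median centring), and 1 higher and 1 lower for L-NAME against Met-fed. Over all genes 24.2% were called higher and 25.2% lower against control (11.1% and 42.1% after median centring), and 21.5% and 22.5% against Met-fed. Of the 10, those higher against control were Dhrs3, Rarb, Lrat and Crabp2, which also stand in the lists above. Those lower were Cyp26b1, whose dimmer probe set did not show the fall, and Tgm2, whose dimmer probe set went the other way (0.53 ± 0.16). A direct repeat with 5 bases between (DR5: 2 copies of the hexamer, A or G then G, G or T, and TCA, on either strand), the arrangement bound by retinoic acid receptors, was looked for in the 300 bases around each start. It was found in 2 of 65 list genes with a sequence, Rarb and Cyp26a1, and in 0.382% of all promoters, and in none of the 5 members with a sequence. Both genes were listed as induced by retinoic acid, so the share in the lists was partly set by that choice and is no test. The sites are shown with the repeats in capitals, for Rarb at chr15:11336416-11336432 on the plus strand and for Cyp26a1 at chr1:244883730-244883746 on the minus strand, from RefSeq on GRCr8.
Rarb: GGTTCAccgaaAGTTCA
Cyp26a1: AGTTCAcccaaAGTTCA

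**Figure D4:**
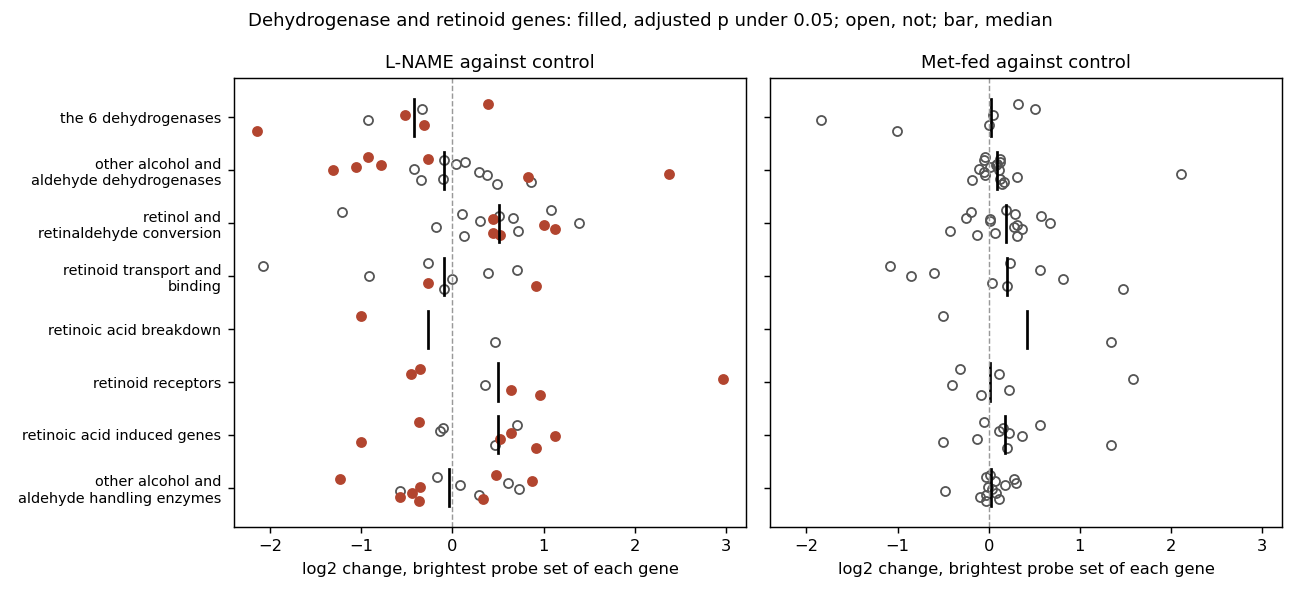
Log2 change of each gene by its brightest probe set (x axis) in the 6 dehydrogenases and 7 lists of related genes (rows), for L-NAME against control and Met-fed against control. Filled points passed an adjusted p under 0.05, and bars are medians. The called genes of retinol and retinaldehyde conversion all lie above 0 for L-NAME, which after median centring was 1 above and 1 below, no point is filled for Met-fed, and the points beyond 2 at the right are Aldh1b1 and Rxra, which lie near the bacterial controls.

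Of 14 other enzymes that handle alcohols, aldehydes or their products, 3 were called higher and 5 lower in L-NAME hearts against control, beside 24.2% and 25.2% of all genes. Cbr4, a carbonyl reductase, rose by 0.87 ± 0.13 (adjusted p = 3.66e-05, limma) and Akr7a2, an aldehyde reductase, fell by 0.45 ± 0.11 (adjusted p = 0.00253, limma), and both held under the 2 other scalings. Akr1a1, also an aldehyde reductase, changed by -0.37 ± 0.06 (adjusted p = 0.00013, limma) and Cat, the catalase that can oxidize ethanol, by -0.35 ± 0.09 (adjusted p = 0.00349, limma). After quantile normalization these were -0.06 (adjusted p = 0.404, limma) and -0.02 (adjusted p = 0.868, limma). Cyp2e1, the ethanol-inducible cytochrome P450, fell by 1.23 ± 0.47 (adjusted p = 0.0419, limma). Its groups overlapped, at 5.70 to 7.19 on L-NAME and 5.83 to 8.83 on control arrays. Esd, which follows Adh5 in formaldehyde disposal, gave -0.17 ± 0.09 and did not pass (adjusted p = 0.133, limma). Against Met-fed hearts 2 of the 14 were called higher and 4 lower, beside 21.5% and 22.5% of all genes, and Met-fed against control gave 0 calls and 0 genes with an unadjusted p under 0.05.

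Markers of the cells that could hold these enzymes moved with the L-NAME arrays too, and in whole-tissue RNA fewer cells of a type and less RNA per cell cannot be told apart. For the marker counts below, the shares over all genes for L-NAME against control were 24.2% higher and 25.2% lower. They were 20.1% and 30% after quantile normalization, and 11.1% and 42.1% after median centring. In the brightest signal group 52.6% of probe sets were called lower. All 6 measured cardiomyocyte markers were above the bacterial controls on every array. Of them 5 were called lower in L-NAME hearts against control, but 1 lower and 2 higher after quantile normalization, and the summed log2 levels were 13.9 to 14.1 on L-NAME, 14.1 to 14.6 on Met-fed and 14.4 to 14.5 on control arrays. All 5 macrophage markers fell, also under both other scalings, with sums of 10.8 to 11.3 on L-NAME, 11.5 to 11.8 on Met-fed and 11.6 to 11.9 on control arrays. Of 5 endothelium markers 4 were called lower, 3 after quantile normalization and 5 after median centring. Of 9 fibroblast markers 3 were called lower and 1 higher, and 2 and 3 after quantile normalization. Dimmer probe sets, outside these counts, partly disagreed. One of Ddr2, called higher, lay at 6.42 to 6.90 on L-NAME and 8.20 to 9.18 on control arrays. Its dimmest, at 5.33 to 6.06 and 4.29 to 5.25, went with the call. That of Dpt, called lower, lay at 10.18 to 10.50 on L-NAME and 9.63 to 10.02 on control arrays. Dimmer probe sets of Myh6, Myl2, Kdr and Ptprc also ran higher on L-NAME arrays, against their lower calls.

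The 7 measured markers of epicardium and mesothelium, the cells known for Aldh1a2 in the embryo, had 3 called higher and 0 lower, and 0 of either after median centring. Of the 7, 3 were above the bacterial controls on every array. Those called were Wt1, Msln and Upk1b, and Msln and Upk1b averaged only 2.70 and 2.51 in control hearts. The sums were 9.28 to 9.65 on L-NAME, 8.60 to 9.06 on Met-fed and 8.68 to 9.21 on control arrays. They were mostly the signal of Wt1, which averaged 8.99 in L-NAME, 8.33 in Met-fed and 8.49 in control hearts. Aldh1a2 was lowest on average where this sum was highest. Of 7 adipocyte markers, 3 of them above the bacterial controls on every array, 1 was called lower. Of 4 smooth muscle markers 2 were called higher and 1 lower, and of 2 blood markers 1 lower, which was higher after quantile normalization. Of 4 liver markers, liver being the organ best known for class I alcohol dehydrogenase, 1 was above the bacterial controls on every array and 0 passed against control. No list had a call for Met-fed against control. The part of these cell types in the dehydrogenase results was not tested.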

How the data were processed

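Left ventricle RNA was read on 13 arrays. The authors computed the deposited intensity values with MAS5, per the labels' processing notes, without a version. The values are linear, and no further normalization was applied. Log2 was taken without an offset, 57 control probe sets were left out of 31099, and the other 31042 entered limma 3.58.1 (R 4.3.3). It had 1 coefficient per group over all 13 arrays and a variance trend, and p-values were Benjamini-Hochberg adjusted over all probe sets with a threshold of 0.05. Exact permutation tests (2-sided, scipy 1.17.1) were run on single probe sets. The fit was tested on simulated data. Figures were drawn with matplotlib 3.10.9.

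Genes were named from the deposited platform annotation, which gave 1 symbol to 20826 probe sets, several to 436 and none to 9780. A list gene was read by the probe set with the highest mean. The members and lists were chosen with earlier results of these data known. Per list and comparison, up to 4 called genes with the smallest p were taken for naming, or 2 where none was called, plus the steps next to a member, not all of which are reported here; the text gives a selection of them, and other genes where a count is spelled out. Alternatives were offsets of 16 and 50, quantile normalization, centring of each array on its median, leaving out probe sets below the median signal (29.2), a fit of only the 2 groups compared, limma without a variance trend, the methods' t-test (on log2 signals with equal variances and all 5 control arrays, without the variance stabilization the methods name), a replicate block and each array left out. The number of arrays limits the precision.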

Additional observations from a re-analysis of the deposited data

Results flagged for a closer look

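In 2 of 21 groups of arrays, 1 per member probe set and treatment, 1 array lay far from the others, where chance flags about 1 in 20 groups. Adh7 had a log2 signal of -2.18 on Met-fed replicate 2, against 2.35 to 2.77 on the other Met-fed arrays. The dim probe set labelled Adh1c had 4.12 on control replicate 4, against 2.18 to 2.60 on the other control arrays. Both probe sets were at low signal, and the reason was not tested.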

How the results depend on the processing

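Of the single changes under the alternatives, 436 kept direction and call, 14 turned sign, and 3 gained and 3 lost the call, the last 6 being those of Aldh1a2 given above and of Adh1c under the block. The count of called member probe sets was 4 for L-NAME against control (4 to 5 over the settings, 4 with any array left out) and, over the 5 probe sets other than Adh1c, 3 for L-NAME against Met-fed (2 to 4, and 2 to 3 with an array left out). With the lists and Adh1c, 33 of 83 genes, not all of them measured, were called for L-NAME against control (29 to 34, and 30 to 34 with an array left out). Over all genes 24.2% were called higher and 25.2% lower. Array median centring gave 4 higher and 28 lower of the member and list genes against control, beside 15 and 18 without it. Over all genes, median centring gave 11.1% higher and 42.1% lower. Over all probe sets, the share of calls that were higher was 62.8% for L-NAME against control, 50.1% after quantile normalization and 34.9% after median centring, and 63.1%, 49.5% and 34.4% for L-NAME against Met-fed. For Met-fed against control the replicate block changed the count of called members, and of list genes, to 1. That was Adh1c, which was chosen on this contrast, so the count is no test of it, and without Adh1c the count of members was 0. Control replicate 5 has no partner in the block. Over probe sets of at least median signal, the deviations of same-numbered arrays had correlations of -0.21 to 0.24. Such correlations cannot settle whether the numbers pair the arrays. Adh1c itself had the order 3, 1, 4, 2 from high to low in all 3 groups, seen after the fact. The sign turned for the dim Adh1c probe set against control in L-NAME hearts after quantile normalization (-0.0493), and for Aldh2 after median centring in L-NAME against control (-0.0384) and against Met-fed (-0.30). For Met-fed against control it turned for Adh5 after median centring (-0.0572) and with the replicate block (-0.0017), and for Aldh1a1 after median centring (-0.0052). With 1 array left out, Adh5 ranged from -0.0433 to 0.0344 and Aldh1a1 from -0.0445 to 0.11 for Met-fed against control, and for L-NAME against Met-fed Adh7 ranged from -0.27 to 1.38 and Aldh2 from -0.0171 to 0.12. Apart from the scaling steps and left-out arrays, which change what is compared, the cause was not tested. The filter at the median signal left no value for Adh7 and the dim Adh1c probe set.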
